A study of Homo sapiens with 12 samples.

Results

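Lowering of KDM3A was examined in SW780, a human bladder carcinoma line, on 6 of the 12 expression arrays of the study; the remaining 6 came from the lung carcinoma line A549. KDM3A encodes a histone demethylase that takes methyl groups off lysine 9 of histone H3. SW780 cells received siKDM3A, a small interfering RNA against that transcript, or 1 of 2 control siRNAs, siEGFP and siFFluc, whose named targets are reporter genes of jellyfish and firefly. Each siRNA was measured on 2 arrays. All cells, the controls included, were transfected with 100 nM duplex and a cationic lipid, and total RNA was taken after 24 h. The labels give 1 name for the KDM3A siRNA and do not say how many duplexes it stands for. They also do not say whether the 2 arrays of a group came from separate cultures, and the p-values therefore cover array-to-array spread that may be purely technical.

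Values are MAS5 signals, a linear measure of a probe set's brightness. A change is the mean log2(signal + 16) of the siKDM3A arrays minus that of the controls, with siEGFP and siFFluc weighted equally, and it is given ± its SE. Genes are represented by the probe set of highest mean over the 12 arrays. A gene was called when limma's adjusted p was under 0.05 over all 14057 genes tested. Since the 16 is added to every signal, changes of dim genes are understated.

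The arrays carried markers of bladder epithelium. Of 20 luminal urothelial markers, 16 had signals above 100 on all 6 arrays, among them GATA3 (10803 to 16049) and the uroplakin gene UPK1B (7237 to 10865), while UPK3A stayed at 4.0 to 9.3. No leukocyte marker of 13 was above 100 on all arrays. Of basal and squamous markers 5 of 9 were, among them TRIM29 (6338 to 12489). So were 2 of 10 lung, 1 of 10 fibroblast and 1 of 8 endothelial markers. Median signal was 58.1 and 54.3 on the siKDM3A arrays against 50.3 to 54.2 on the controls, and the 3' to 5' ratio of beta-actin probe sets was 1.51 and 1.61 against 1.39 to 1.44. The siFFluc arrays were the most uneven pair (SD of the log2 difference 0.479, against 0.406 for siEGFP and 0.434 for siKDM3A). The part of these differences in the results was not tested.

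KDM3A itself gave signals of 409.8 and 373 with siEGFP, 359 and 433 with siFFluc, and 197 and 223 with siKDM3A. Neither siKDM3A array overlapped with any control, and 53.3% of the control signal remained. The fall was 0.86 ± 0.10 on the log2 scale (adjusted p = 0.000263), and it was called with any 1 array left out. These are bulk RNA samples, so less transcript in every cell and fewer cells with the transcript cannot be told apart. Of 23 other lysine demethylases and related JmjC enzymes tested, 2 rose (8.7%, against 5.73% of all genes) and 1 fell (4.35%, against 6.18%), shares close to those of all genes. The nearest relative, KDM3B, gave a change of -0.08 ± 0.08 and was not called (adjusted p = 0.599). RIOX1, a ribosomal oxygenase of the JmjC family, rose by 0.39 ± 0.07 (adjusted p = 0.00281, and 0.0506 without SW780 siKDM3A replicate 2). KDM1A, the flavin-dependent demethylase also known as LSD1, fell by 0.33 ± 0.08 (adjusted p = 0.0137), and the adjusted p was 0.0757 with SW780 siKDM3A replicate 1 left out and 0.112 with replicate 2 left out. KDM2A, at 0.22 ± 0.07 (adjusted p = 0.0492), lost its call when any of 10 arrays was left out (adjusted p up to 0.314), all but the 2 siFFluc arrays of SW780.

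Of the 14057 genes, 1675 were called against both controls (11.9%), of which 806 were higher (5.73%) and 869 lower (6.18%). Changes of at least 2-fold were few (0.847%), with 52 rises (0.37%) and 67 falls (0.477%). The median change over all genes was 0.03. Against siEGFP alone 894 genes were called (6.36%), 427 higher (3.04%) and 467 lower (3.32%). Against siFFluc alone 2006 were called (14.3%), 983 higher (6.99%) and 1023 lower (7.28%), and 540 were called in the same direction against each of them (3.84%). The control siRNAs differed from each other in 803 genes (5.71%), 431 higher (3.07%) and 372 lower (2.65%) with siFFluc. Both siKDM3A arrays lay outside the range of all 4 control arrays for 4029 genes (28.7%), above it for 2160 (15.4%) and below it for 1869 (13.3%). Among the 10649 genes with a mean signal of at least 100, a fit of their own called 1791 (16.8%), 864 higher (8.11%) and 927 lower (8.71%), so bright genes meet a higher background.

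These counts moved with single arrays. Without SW780 siFFluc replicate 2 there were 1331 genes higher and 1287 lower, without siKDM3A replicate 1 there were 319 and 430, and without siKDM3A replicate 2 there were 299 and 450. The balance of rises and falls depended on scaling, since 48.1% of calls were rises as deposited and 18.6% (287 of them, against 1257 falls) after each array was scaled to the same median.

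**Figure D1:**
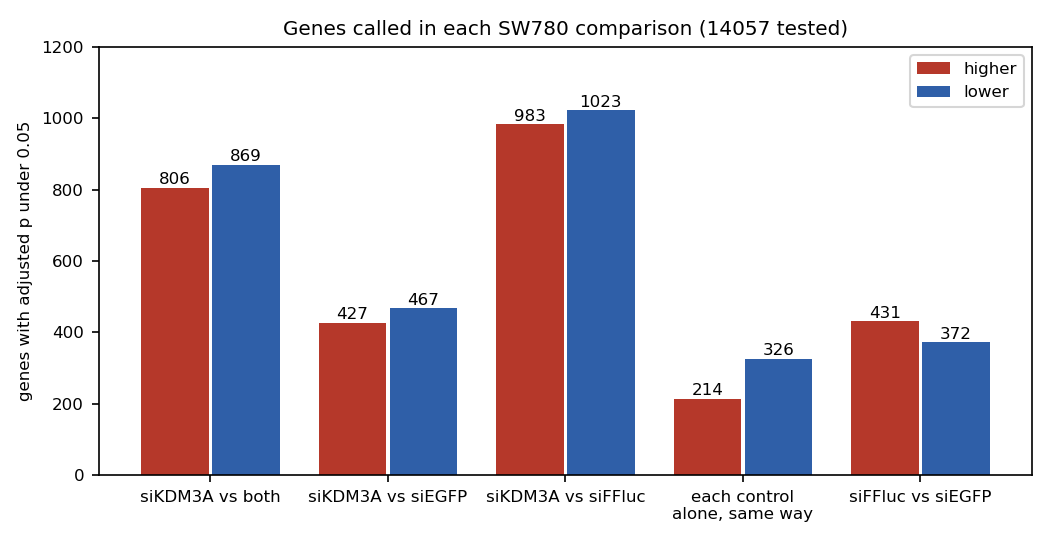
Bars give the number of genes with an adjusted p under 0.05 that were higher (red) or lower (blue) in each comparison of SW780 arrays, 2 arrays per siRNA. The comparison of the control siRNAs with each other gave 431 genes higher and 372 lower with siFFluc, close in number to the 427 and 467 of siKDM3A against siEGFP.

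Of the 34 lists, the interferon-induced antiviral genes had the highest share of called rises. Interferons are secreted by cells that sense foreign nucleic acid. They bind surface receptors coupled to JAK kinases, which activate transcription factors that bind the interferon-stimulated response element in the promoters of antiviral genes. Some promoter stretches that hold the core of that element are shown for 4 of the antiviral genes that rose. These genes are examples that hold the motif, not the 4 largest rises. MX1 (1.83) and OAS2 (1.37), for instance, rose more than IFI6 (1.10). The motif searched was GAAA, any 2 bases and GAAA again, on both strands, with overlapping matches counted. Capitals mark each match, and a match on the other strand reads as TTTC, 2 bases and TTTC.

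IFIT1, chr10:89392487-89392549, plus strand, 136 to 74 bases before the start: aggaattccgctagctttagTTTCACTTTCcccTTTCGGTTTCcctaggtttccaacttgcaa
IFI27, chr14:94110608-94110670, plus strand, 128 to 66 bases before the start: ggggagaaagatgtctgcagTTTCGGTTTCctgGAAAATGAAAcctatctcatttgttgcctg
IFI6, chr1:27672256-27672368, minus strand, 176 to 64 bases before the start: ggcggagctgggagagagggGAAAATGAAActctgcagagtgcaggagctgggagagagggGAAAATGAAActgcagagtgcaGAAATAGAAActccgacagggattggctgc
IFI44L, chr1:78620264-78620404, plus strand, 184 to 44 bases before the start: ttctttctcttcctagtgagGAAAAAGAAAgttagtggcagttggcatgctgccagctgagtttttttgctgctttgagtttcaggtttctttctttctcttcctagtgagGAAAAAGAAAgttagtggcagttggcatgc

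The sequences are from RefSeq on assembly GRCh38.p14, 5' to 3' on the gene's strand. IFIT1, IFI27 and IFI44L hold 2 matches each and IFI6 holds 3. Among all promoter windows of 250 bases before to 50 after a start, 1255 of 35116 hold the motif (3.57%), which is 1195 of 27305 genes with a window (4.38%). Of the antiviral effector genes that rose, 20 had a window and 15 of these held it (75.0%). Of the effector genes that were not called, 19 of 26 held it (73.1%), so the motif was about as frequent among members that did not pass the test.

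Antiviral effectors rose in 24 of 59 members tested and fell in 2, against 5.73% and 6.18% of all genes. The list median was 0.15 against 0.03 for all genes, and 18 of the rises were called against each control alone (1.52% of all genes). Both siKDM3A arrays lay above all 4 controls for 29 of the 59 members, against 15.4% of all genes. The number of rises stayed between 17 and 24 when any 1 SW780 array was left out, and it was 20 under median scaling. The falls numbered 5 without siFFluc replicate 2 and 1 without siKDM3A replicate 1.

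IFIT1, which binds foreign RNA and blocks its translation, gave 191 and 186 with siEGFP, 256 and 298.5 with siFFluc, and 1077 and 1032 with siKDM3A. The siKDM3A arrays stood far above every control, and siFFluc stood above siEGFP. The change was 2.13 ± 0.07 (adjusted p = 4.38e-09).

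IFI27, a small mitochondrial and nuclear-envelope protein, gave 55.8 and 48.5 with siEGFP, 99.8 and 101 with siFFluc, and 394 and 425 with siKDM3A. The order of the 3 siRNAs was the same as for IFIT1, with no overlap of groups. The change was 2.26 ± 0.08 (adjusted p = 5.02e-09).

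MX1, a dynamin-like GTPase that traps viral nucleocapsids, gave 87.6 and 121 with siEGFP, 223 and 192 with siFFluc, and 568 and 558 with siKDM3A. Here too siFFluc lay between siEGFP and siKDM3A, and the change was 2.28 against siEGFP and 1.38 against siFFluc. Its relative MX2, known for its action against retroviruses, gave 153 and 155, then 119 and 220, and 476 and 413, with no gap between the controls, and rose by 1.40 ± 0.21 (adjusted p = 0.00128).

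RSAD2, which encodes the antiviral enzyme viperin, was dim in the controls, at 24.2 and 52.3 with siEGFP and 64.6 and 26.5 with siFFluc, and reached 187 and 193 with siKDM3A. The groups did not overlap, and the rise was 1.89 ± 0.26 (adjusted p = 0.000693). IFI44L, a cytoplasmic interferon-induced protein, went from 25.6, 21.6, 39.5 and 44.4 on the control arrays to 168 and 159, a rise of 1.90 ± 0.16 (adjusted p = 1.88e-05).

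The 2'-5' oligoadenylate synthetases, which make the messenger that activates RNase L, rose by different amounts. OAS2 gave 75.7 and 59.5, then 124 and 93.2, and 245 and 247 with siKDM3A, a rise of 1.37 ± 0.17 (adjusted p = 0.000288). OAS1 started brighter, at 1259.9 and 1197 with siEGFP and 1133 and 1445 with siFFluc, and reached 1842 and 2162, a rise of 0.66 ± 0.09 (adjusted p = 0.00082). A fit of all kept probe sets called another of OAS2 at 1.25 ± 0.27 (adjusted p = 0.0128), and the third, that of highest mean in SW780, was at 0.44 and was not called (adjusted p = 0.13).

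Bright members moved less on the log scale than the dim ones named above. ISG15, a ubiquitin-like modifier, went from 5798 and 5924 with siEGFP and 5667 and 6721 with siFFluc to 9164 and 8919.7, a rise of 0.59 ± 0.08 (adjusted p = 0.000516). PLSCR1, a phospholipid scramblase, gave 4549 and 4386, then 4211 and 4519, and 6444 and 6024 with siKDM3A, a rise of 0.50 ± 0.06 (adjusted p = 0.000293). IFIT3, a partner of IFIT1, rose by 0.73 ± 0.09 from control signals of 1982 to 2446.

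XAF1, a pro-apoptotic antagonist of XIAP, gave 345.5 and 331 with siEGFP, 376 and 570.5 with siFFluc, and 925 and 937 with siKDM3A. IFI6, a mitochondrial membrane protein, gave 388 and 434, then 468 and 465, and 889.9 and 1031. Both met the rule for the largest rises, given below, which required separation from all controls. They rose by 1.20 ± 0.15 (adjusted p = 0.000386) and 1.10 ± 0.09 (adjusted p = 1.22e-05). The list also held 2 members that fell. LGALS3BP, a secreted galectin-binding glycoprotein, fell by 0.56 ± 0.09 (adjusted p = 0.00249), and DDX60L, a helicase-like gene, by 0.48 ± 0.11 (adjusted p = 0.0126, and 0.192 without siKDM3A replicate 1).

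**Figure D2:**
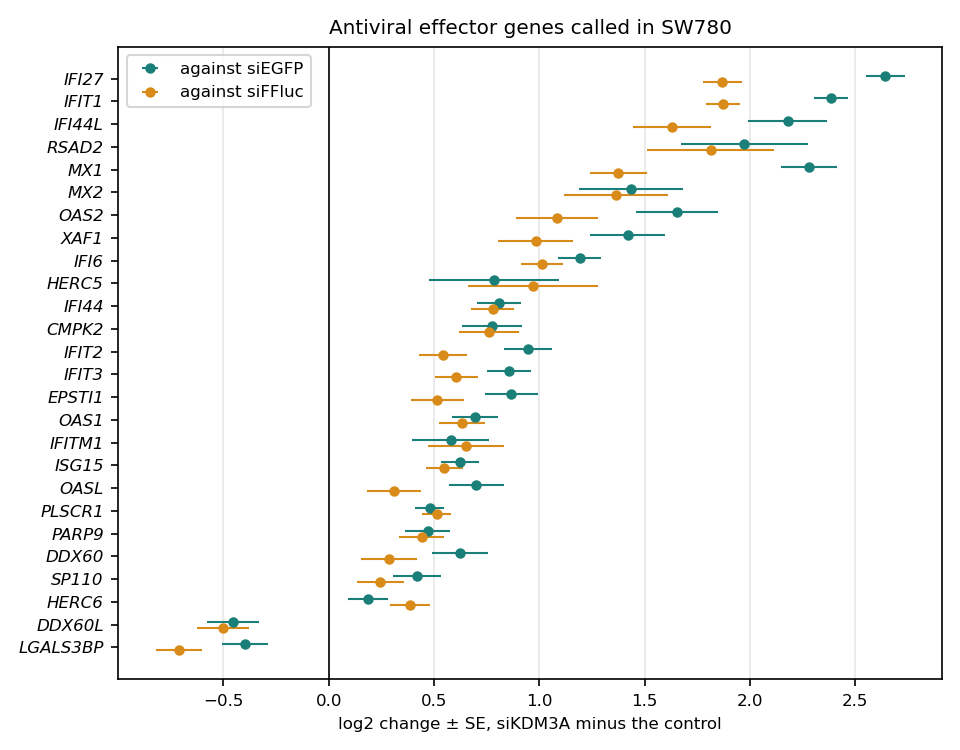
Points give the log2 change ± SE of the 26 antiviral effector genes called in SW780, siKDM3A minus siEGFP (green) or minus siFFluc (orange), 2 arrays per siRNA. Both comparisons share the siKDM3A arrays. IFIT1 stands at 2.39 against siEGFP and 1.87 against siFFluc, and LGALS3BP and DDX60L lie below 0 in both.

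Among 18 interferon receptors and signal factors tested, 3 rose (16.7%, against 5.73% of all genes) and 1 fell (5.56%, against 6.18%), with a median of 0.00. IRF9 gave 307 and 299.7 with siEGFP, 378 and 379.9 with siFFluc, and 1063 and 1217 with siKDM3A. The siKDM3A arrays were the highest by far and the controls were close together. The rise was 1.70 ± 0.08 (adjusted p = 5.84e-08), larger than that of any other member of this list. USP18, a protease that removes ISG15 and damps the receptor, rose by 0.61 ± 0.14 (adjusted p = 0.0124), and IL10RB, a receptor chain shared by interferon lambda and IL-10, by 0.35 ± 0.10 (adjusted p = 0.0425). The kinase gene JAK1 fell by 0.39 ± 0.07 (adjusted p = 0.00391, and 0.0671 without siKDM3A replicate 1). The USP18 call ended without siKDM3A replicate 2 (adjusted p = 0.157). The IL10RB call ended without any of 8 arrays (adjusted p up to 0.243): siEGFP replicate 1, siFFluc replicate 2, either siKDM3A array, and the 4 siFFluc and siKDM3A arrays of A549. Without siKDM3A replicate 2, 1 member of the list rose. The falls numbered 4 without siFFluc replicate 2 or against siFFluc alone, and 0 without siKDM3A replicate 1.

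Sensors of foreign nucleic acid and their adaptors had 6 rises (30.0%, against 5.73% of all genes) and 2 falls (10.0%, against 6.18%) among 20 tested. The list median was 0.04, and 2 rises were called against each control alone. IRF7, the factor that amplifies interferon genes, gave 180 and 124 with siEGFP, 162 and 163 with siFFluc, and 290 and 295 with siKDM3A. Controls and siKDM3A did not overlap, and the rise was 0.84 ± 0.13 (adjusted p = 0.00107). TBK1, the kinase that phosphorylates IRF3 and IRF7, rose by 0.34 ± 0.07 (adjusted p = 0.0049), and RIGI, a sensor of short RNA with a 5' triphosphate, by 0.35 ± 0.09 (adjusted p = 0.0197). The TBK1 call ended without siKDM3A replicate 1 (adjusted p = 0.0897), and the RIGI call without siEGFP replicate 2 or either siKDM3A array (0.0577 to 0.115).

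For 2 of these rises the control siRNAs set the call. TRIM25, the ubiquitin ligase that works with RIGI, gave 3065 and 3576 with siEGFP, 1413 and 1392 with siFFluc, and 3296 and 3520.5 with siKDM3A. The siFFluc arrays alone were low, and the change was 0.04 against siEGFP and 1.27 against siFFluc. EIF2AK2, the kinase PKR that binds double-stranded RNA, gave 1643 and 1745 with siEGFP, 3023 and 2773 with siFFluc, and 3231 and 2657 with siKDM3A. In that gene siFFluc stood level with siKDM3A, with changes of 0.79 against siEGFP and 0.02 against siFFluc, and the call ended without siKDM3A replicate 1 (adjusted p = 0.097).

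IRF3, a latent factor for interferon beta, fell by 0.42 ± 0.09 (adjusted p = 0.0096), a call that ended without siKDM3A replicate 2 (0.145). The adaptor gene TICAM1 fell by 1.33 ± 0.40 (adjusted p = 0.0478) with siKDM3A signals of 97.8 and 12.6, and lost its call without any 1 array other than siKDM3A replicate 1 (adjusted p 0.0662 to 0.5). Without siKDM3A replicate 1, 2 of the sensors rose. Of 21 interferon ligand genes 3 passed the filter on dim probe sets, and 0 of these were called by limma (1 had an unadjusted p under 0.05). These were IFNA17, IFNK and IFNL2, with changes from -0.50 to 0.27.

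Antigen presentation by MHC class I, which interferons also raise, did not follow the antiviral genes. Of 20 members tested 0 rose and 4 fell (PDIA3, TAPBP, CANX and HLA-B), against 5.73% and 6.18% of all genes. The list median was -0.16. The falls numbered 2 against siEGFP alone (median -0.07) and 6 against siFFluc alone (median -0.18), and 1 was called against each. Between the controls 4 members were higher and 1 lower with siFFluc. Against siEGFP alone limma called neither CANX (-0.08, adjusted p = 0.682) nor TAPBP (-0.58, adjusted p = 0.0518). PDIA3, a disulfide isomerase of the peptide-loading complex, gave 18904 and 17452 with siEGFP, 21622 and 19906 with siFFluc, and 14734 and 13152 with siKDM3A. It was below all controls and fell by 0.48 ± 0.06 (adjusted p = 0.000529). TAPBP, or tapasin, gave 2218.5 and 2312, then 3600 and 2286, and 1529 and 1497, with siFFluc replicate 1 standing high, and fell by 0.75 ± 0.14 (adjusted p = 0.00425). HLA-B was at -0.07 against siEGFP and -0.58 against siFFluc, and its probe set can also bind transcripts of related class I genes. The HLA-B call ended without any of 8 arrays, siEGFP and siKDM3A of SW780 and siFFluc and siKDM3A of A549 (adjusted p up to 0.228), and the CANX call without siEGFP replicate 1, siFFluc replicate 1, siKDM3A replicate 2 or either A549 siKDM3A array (up to 0.297). The falls numbered 2 without siEGFP replicate 1, siKDM3A replicate 2 or A549 siKDM3A replicate 1 or 2.

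NF-kB and inflammatory genes moved both ways, with 5 of 33 higher (15.2%, against 5.73% of all genes) and 6 lower (18.2%, against 6.18%). The list median was -0.14. The rises were led by the T-cell chemokines that interferon induces. CXCL10 gave 13.1 and 46.8 with siEGFP, 102 and 19.3 with siFFluc, and 303 and 244 with siKDM3A. Control arrays varied widely at these low signals but lay below both siKDM3A arrays. The rise was 2.45 ± 0.49 (adjusted p = 0.0061), and it was no longer called without siKDM3A replicate 1 (2.31, adjusted p = 0.0708). CXCL11 gave 100.3 and 82.8, then 79.1 and 110.5, and 179 and 226, and rose by 1.00 ± 0.18 (adjusted p = 0.00293).

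The 6 falls were IL1R1, IL1RAP and IL1B of the interleukin-1 system and the chemokine genes CXCL5 (-0.79 ± 0.21, adjusted p = 0.0274), CXCL8 (-0.43 ± 0.10, adjusted p = 0.0161) and CCL2 (-0.71 ± 0.20, adjusted p = 0.0367). The CCL2 call was lost without any of 10 arrays, and those of CXCL5 and CXCL8 without any of 3 arrays each. IL1RAP, the accessory chain of the interleukin-1 receptor, gave 539 and 643 with siEGFP, 635 and 641 with siFFluc, and 221 and 179 with siKDM3A. IL1R1, the ligand-binding chain, was dim at 51.1 and 61.9, then 72.0 and 75.0, and 17.7 and 1.6. Both genes lay below all controls, with falls of 1.55 ± 0.20 (adjusted p = 0.000368) and 1.72 ± 0.22 (adjusted p = 0.000361), although another probe set of IL1RAP gave 0.34 and was not called. The cytokine IL1B fell by 0.45 ± 0.09 (adjusted p = 0.00578), a call lost without either siKDM3A array (adjusted p = 0.0526 and 0.055). Without siFFluc replicate 2 there were 11 falls in the list, without siKDM3A replicate 1 there were 3, and without siKDM3A replicate 2 there were 2. The rises numbered 3 without siEGFP replicate 2 or siKDM3A replicate 2, and 2 without siKDM3A replicate 1.

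The genes of largest change outside the interferon group included 2 rises and 12 falls. The rule took genes called against both controls and against each alone, outside all 4 control arrays, and with a mean signal of at least 200 on one side. It was met by 205 rises and 302 falls, of which the 12 largest of each are shown. Separation from all controls was fixed by the rule for each of these, also for those described above. PIP4P2, a phosphoinositide phosphatase of late endosomes, gave 119.9 and 122 with siEGFP, 149.7 and 126 with siFFluc, and 291 and 318 with siKDM3A, a rise of 1.14 ± 0.19 (adjusted p = 0.00212). SLC35A1, the Golgi transporter of CMP-sialic acid, gave 1695 and 1601, then 1321 and 1375, and 2776 and 3000.3, a rise of 0.95 ± 0.08 (adjusted p = 1.6e-05). Both siKDM3A arrays were above every control for each gene, as the rule required.

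KRT80, a type II keratin of differentiating epithelia, gave 2576 and 2520 with siEGFP, 2650 and 2206 with siFFluc, and 743.5 and 850.0 with siKDM3A. Controls were tight and the siKDM3A arrays far lower, a fall of 1.62 ± 0.09 (adjusted p = 5.75e-07). TIMP3, an inhibitor of metalloproteinases held in the matrix, gave 2611 and 2613, then 2164 and 2482, and 922 and 721, a fall of 1.57 ± 0.14 (adjusted p = 2.89e-05) that its 3 other kept probe sets also showed. KIF3B, a motor subunit of kinesin-2, gave 2431 and 2515, then 2439.7 and 2383, and 933 and 1135, a fall of 1.23 ± 0.08 (adjusted p = 2.29e-06).

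CPT1A, the enzyme that admits long-chain fatty acids to mitochondria, gave 266 and 238, then 233 and 264, and 112 and 82.0. SLC36A1, a lysosomal amino acid transporter, gave 691 and 634, then 671 and 677, and 211 and 346. In both genes the 4 controls were close together, and the falls were both 1.25 (SE 0.16, adjusted p = 0.000433, and SE 0.18, adjusted p = 0.000765). WBP2, a WW-domain-binding coactivator, fell by 1.46 ± 0.17 and BTRC, the substrate receptor of an SCF ubiquitin ligase that targets beta-catenin and IkB, by 1.25 ± 0.21. The siKDM3A arrays of BTRC were uneven, at 189 and 85.6, and its other kept probe sets were not called (-0.17 and -0.55). The zinc-finger gene PLAGL2 fell by 1.15 ± 0.14, the katanin-like gene KATNAL1 by 1.16 ± 0.18 and the lipid-transfer gene PLEKHA8 by 1.17 ± 0.12. Other kept probe sets of PLAGL2 (-0.55), KATNAL1 (-0.35) and CPT1A (-0.34 and -0.35) were not called. PLEKHA8 differed between controls (-0.78 against siEGFP and -1.57 against siFFluc), and its other 5 kept probe sets gave -0.03 to 0.07.

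**Figure D3:**
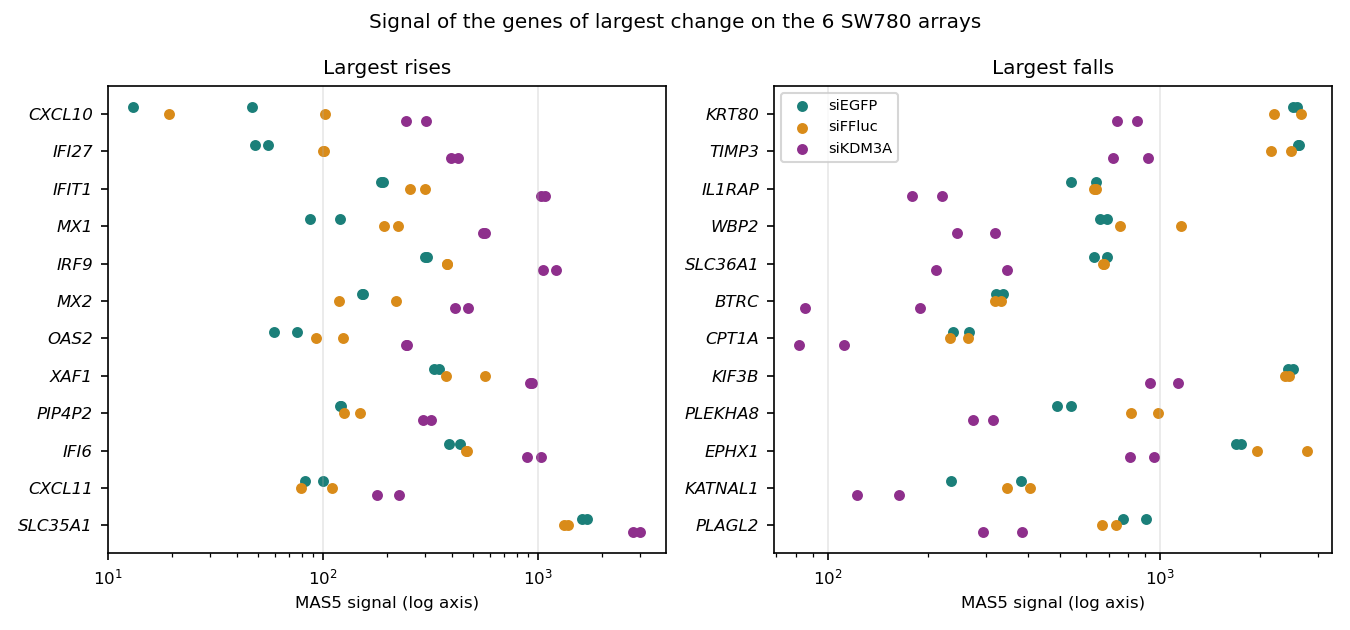
Each point is the MAS5 signal of 1 array on a log axis for the 12 largest rises (left) and 12 largest falls (right) that met the rule, with siEGFP in green, siFFluc in orange and siKDM3A in purple. The siKDM3A arrays lie outside all 4 controls in every gene because the rule asked for it. Control signals of CXCL10 span 13.1 to 102, while those of KIF3B span 2383 to 2515.

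The same genes were set beside their values in A549, whose arrays entered the choice through the shared estimate of the spread, the filter on dim probe sets and the choice of each gene's probe set. Of the 12 falls, 11 were also called lower in A549, where 6.37% of all genes were lower, and of the 12 rises 2 were called higher there (IFIT1 and SLC35A1), against 5.33% of all genes. The fall in A549 was 2.21 for KRT80, 1.36 for TIMP3, 2.04 for IL1RAP and 1.34 for CPT1A. EPHX1 was the exception, at 0.02 in A549 (adjusted p = 0.965). The test of the difference between the lines, SW780 minus A549, called 2.79% of all genes. It called 13 of 59 antiviral effectors, each with the more positive change in SW780, where 1.8% of all genes differed that way. It called 0 of 34 collagens, laminins and integrins lower in SW780 (0.989% of all genes), and 1 higher, while 8 were lower at an unadjusted p under 0.05.

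Components and receptors of the extracellular matrix fell. Basement membranes are sheets of type IV collagen, laminins and heparan sulfate proteoglycans that epithelial cells hold through integrins, and alpha3 and beta4 integrin chains are among the receptors for laminin-332. Of 34 collagens, laminins and integrins, 15 fell (44.1%, against 6.18% of all genes) and 0 rose, with a median of -0.37. Against each control alone 9 of the falls were called (2.32% of all genes). The median was -0.35 against siEGFP and -0.42 against siFFluc. Both siKDM3A arrays lay below all controls for 20 of the 34 members, against 13.3% of all genes. The falls numbered 10 to 18 with any 1 SW780 array left out. With the mean of a gene's probe sets 8 fell.

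Among collagens, COL4A6 gave 827 and 861 with siEGFP, 712.5 and 774 with siFFluc, and 509 and 525.5 with siKDM3A. COL4A2 gave 309.6 and 262, then 217 and 229.5, and 168 and 129.6. Both genes encode type IV chains and were lowest on the siKDM3A arrays, with falls of 0.60 ± 0.08 (adjusted p = 0.000342) and 0.71 ± 0.10 (adjusted p = 0.000971). Their other probe sets were not called. Of the laminins, LAMB3, the beta chain of laminin-332, gave 4548.5 and 4639.6, then 6845 and 4707, and 3069.9 and 2982, a fall of 0.75 ± 0.12 (adjusted p = 0.00159). The proteoglycan gene AGRN was read from 379 to 518 with siKDM3A against 674 to 1514 in the controls, and fell by 1.00 ± 0.22 (adjusted p = 0.0104, and 0.138 without siKDM3A replicate 2). For LAMB3 and AGRN the siFFluc replicate 1 array stood above the other controls.

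Among integrins, ITGA3 gave 1047 and 882 with siEGFP, 1136 and 940.4 with siFFluc, and 457 and 629.5 with siKDM3A, a fall of 0.87 ± 0.13 (adjusted p = 0.00108). Its controls did not overlap with siKDM3A. ITGB4, the partner of alpha6 in hemidesmosomes, fell by 0.75 ± 0.14 (adjusted p = 0.00391, and 0.0544 without siKDM3A replicate 2), and ITGB5, which pairs with alphaV, by 0.56 ± 0.07 (adjusted p = 0.000413). Other kept probe sets of ITGB5 gave -0.56 (called), 0.27 and -0.62 (not called). With its probe sets averaged ITGB5 was not called (-0.37, adjusted p = 0.121). The fibronectin receptor chain ITGA5 was dim, at 50.8 to 63.6 in the controls and 20.8 and 17.9 with siKDM3A, and fell by 1.03 ± 0.16 (adjusted p = 0.00137).

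Genes commonly counted as mesenchymal fell in 12 of 33 members (36.4%, against 6.18% of all genes) and rose in 1 (3.03%, against 5.73%). The list median was -0.16, and 9 falls were called against each control alone. The members that fell included secreted proteases and receptors as well as matrix proteins. PLAU, the urokinase that activates plasminogen, gave 4947 and 4470.0 with siEGFP, 5506 and 5843 with siFFluc, and 2330 and 2997 with siKDM3A, a fall of 0.96 ± 0.09 (adjusted p = 2.91e-05) that its other probe set matched at -0.90. TGFBR2, the ligand-binding receptor for TGF-beta, gave 4141 and 3893, then 4059.5 and 3478, and 2035 and 2228, a fall of 0.86 ± 0.07 (adjusted p = 1.88e-05). Controls and siKDM3A were well apart in both genes.

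TGFBI, a matrix protein induced by TGF-beta, fell by 0.60 ± 0.06 (adjusted p = 7.62e-05), and TGFB1 itself by 0.54 from a control mean of 683 to 466, a call that ended without siKDM3A replicate 2 (adjusted p = 0.0582). Fibronectin, FN1, gave 1998 and 1857, then 1739 and 1955, and 1354 and 1337, a fall of 0.48 ± 0.08 (adjusted p = 0.00193). NT5E, the ectonucleotidase CD73, fell by 0.98 ± 0.08 (adjusted p = 1.88e-05) and MMP2, a gelatinase, by 0.88 ± 0.13 (adjusted p = 0.000814), but their other kept probe sets were not called, at 0.08, 0.00 and -0.33 for NT5E and 0.22 for MMP2. CAV1, the coat protein of caveolae, was the member that rose (0.35 ± 0.09, adjusted p = 0.0184, and 0.186 without siKDM3A replicate 1).

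Epithelial structural genes were lower in part. Of all genes 6.18% fell and 5.73% rose. Of 14 keratins 3 fell (21.4%) and 0 rose (median -0.24), and of 33 junction genes 6 fell (18.2%) and 1 rose (3.03%, median -0.16). Of 19 luminal urothelial markers 2 fell (10.5%) and 0 rose (median -0.10). These medians depended on the control. Against siEGFP and siFFluc they were -0.03 and -0.43 for keratins, -0.10 and -0.23 for junction genes, and 0.08 and -0.25 for luminal markers. OCLN, the tight-junction protein occludin, gave 5918 and 5905.5 with siEGFP, 7689 and 6440.0 with siFFluc, and 3686 and 3865.5 with siKDM3A, a fall of 0.77 ± 0.08 (adjusted p = 8.9e-05). The desmosomal genes DSG2 and PKP3 fell by 0.55 ± 0.10 (adjusted p = 0.00375) and 0.54 ± 0.08 (adjusted p = 0.0012). Other kept probe sets of OCLN (-0.29, -0.41 and 0.03) and PKP3 (-0.03) were not called. With its probe sets averaged PKP3 was not called (-0.29, adjusted p = 0.0964). UPK1B, a uroplakin of the bladder surface plaque, gave 9387 and 9668, then 10419.9 and 10865, and 7537.5 and 7237, a fall of 0.45 ± 0.07 (adjusted p = 0.00107).

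DSP, desmoplakin, gave 3679 and 3488 with siEGFP, 1295 and 1254 with siFFluc, and 3828 and 3571 with siKDM3A. As with TRIM25, the siFFluc arrays alone were low, and the called rise of 0.79 came from a change of 1.52 against siFFluc and 0.05 against siEGFP. KRT8 was at -0.16 against siEGFP, and its call ended without any 1 array other than the 2 siFFluc arrays of SW780 and the 2 siEGFP arrays of A549 (adjusted p up to 0.265). Of 7 basal and squamous markers 3 fell (42.9%, against 6.18% of all genes), namely KRT14, TRIM29 and DSC3. This too depended on the control, with 1 fall against siEGFP alone (median -0.21) and 5 against siFFluc alone (median -0.65). Neither TRIM29 (-0.21) nor DSC3 (-0.35) was called against siEGFP alone, and KRT14 was dim, at 27.1 to 72.3 in the controls. The DSC3 call ended without siEGFP replicate 1 (-0.47) or siKDM3A replicate 2 (-0.36). Without siFFluc replicate 2 there were 6 keratins, 10 junction genes and 4 luminal markers lower, and without siKDM3A replicate 2 there were 3 junction genes lower.

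Lysosomal genes fell in 15 of 39 members (38.5%, against 6.18% of all genes) and rose in 0, with a median of -0.19. Both siKDM3A arrays lay below all controls for 21 of the 39 members, against 13.3% of all genes. Lysosomes break down material from endocytosis and autophagy with acid hydrolases. Of the falls, 7 were called against each control alone. PSAP, the precursor of the saposins that help degrade sphingolipids, gave 5432 and 5455 with siEGFP, 7087 and 6349 with siFFluc, and 3751 and 3378 with siKDM3A. It was below all controls, fell by 0.76 ± 0.06 (adjusted p = 1.88e-05), and its other probe set gave -0.84. The proteases CTSD and TPP1 fell by 0.66 ± 0.10 (adjusted p = 0.0011) and 0.61 ± 0.08 (adjusted p = 0.000552), from control signals of 645.5 to 796 and 939.8 to 1037.

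HEXA, the alpha chain of hexosaminidase, gave 1863 and 1857, then 1826 and 1972, and 1276 and 1268, a fall of 0.56 ± 0.07 (adjusted p = 0.000368) on the probe set used, while its other 2 were not called. LAMP1, a membrane glycoprotein of lysosomes, fell by 0.37 ± 0.06 (adjusted p = 0.0021), with 3 other probe sets at -0.46 to -0.65. ARSA, arylsulfatase A, had the largest fall of the list at 1.64 ± 0.28 (adjusted p = 0.00228), from control signals of 66.0 to 109.5 to 19.2 and 10.2. The count of falls was 6 without siKDM3A replicate 1, 8 without siKDM3A replicate 2 and 8 with the mean of probe sets.

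Chaperones of the endoplasmic reticulum fell in 10 of 24 members (41.7%, against 6.18% of all genes) and rose in 3 (12.5%, against 5.73%), with a median of -0.17. They fold secreted and membrane proteins, and their genes are induced by the unfolded protein response. HSP90B1, the chaperone GRP94 of integrins and Toll-like receptors, gave 9824 and 9133 with siEGFP, 9746 and 9475.5 with siFFluc, and 6687 and 6591.5 with siKDM3A, a fall of 0.52 ± 0.05 (adjusted p = 9.28e-05). PDIA4, a disulfide isomerase, gave 5398 and 6201, then 8808 and 6020.3, and 3575.5 and 3509.9, a fall of 0.87 ± 0.12 (adjusted p = 0.00065). Both siKDM3A arrays were lowest in each gene, and siFFluc replicate 1 was highest for PDIA4.

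The 3 members that rose are the transcription factor gene XBP1, the co-chaperone gene DNAJB9 and the translocon subunit gene SEC61B. XBP1 gave 2381.5 and 2636, then 2435 and 2479, and 3411 and 3505, a rise of 0.48 ± 0.06 (adjusted p = 0.000552). Against each control alone 4 members fell and 2 rose. The falls numbered 6 without siEGFP replicate 1 or siKDM3A replicate 1 and 5 without siKDM3A replicate 2, and 1 rise was called without either siKDM3A array. The DNAJB9 call ended without siKDM3A replicate 1 (adjusted p = 0.0923) or 2 (0.0607), and the SEC61B call without any of 9 arrays (up to 0.168), all but siFFluc replicate 2 and the A549 siKDM3A pair.

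**Figure D4:**
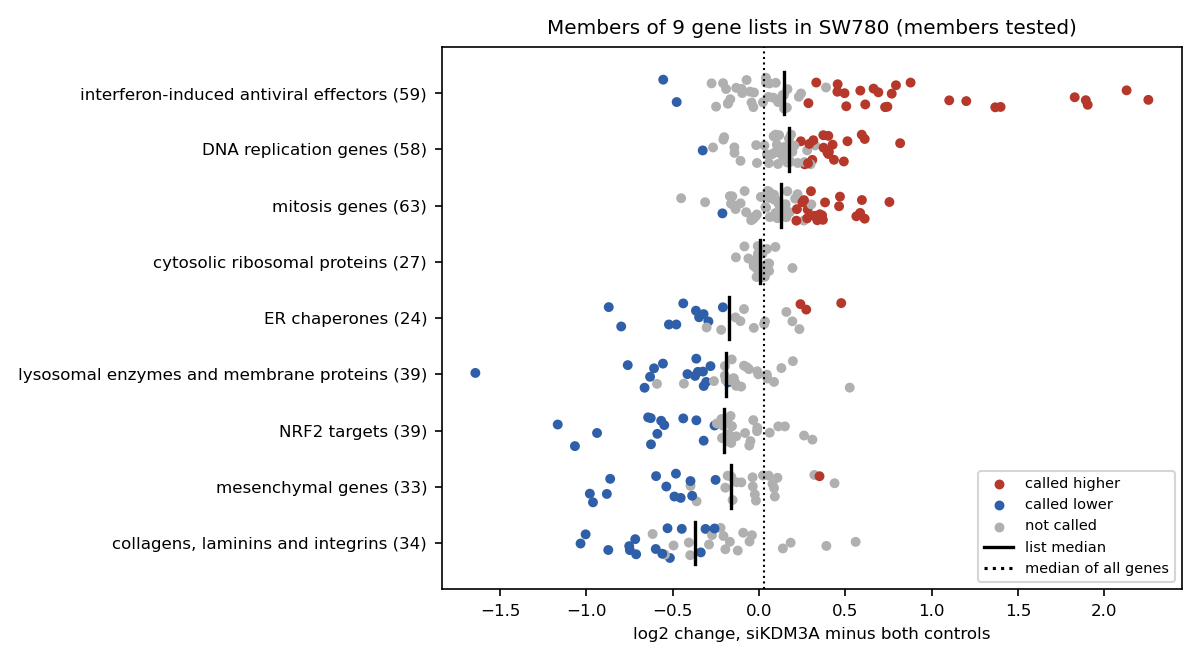
Each point is 1 member gene of 9 lists, placed by its log2 change (siKDM3A minus both controls) and coloured by its call, with the list median as a black bar and the median of all genes, 0.03, as a dotted line. Medians run from 0.18 for DNA replication genes to -0.37 for collagens, laminins and integrins, and limma called 0 of 27 ribosomal protein genes, with 0 at an unadjusted p under 0.05. Several rises of antiviral effectors lie past all others.

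**Figure D5:**
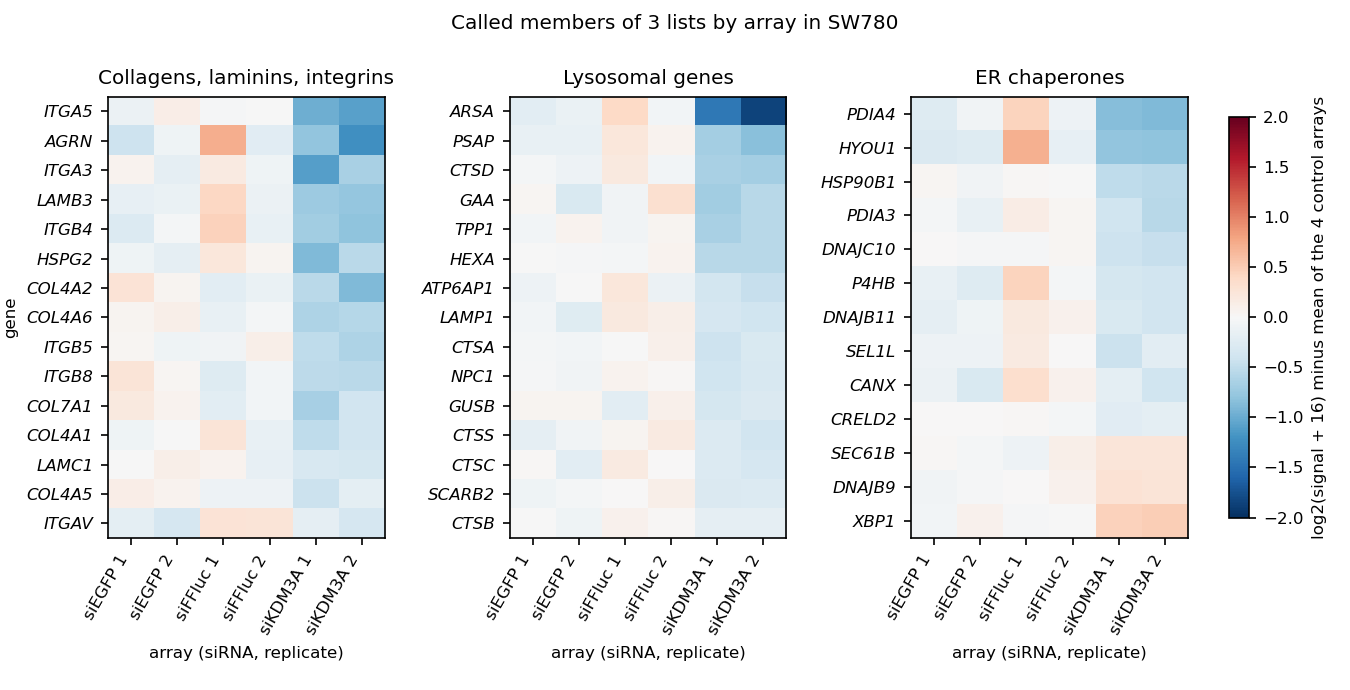
Colour gives log2(signal + 16) of each SW780 array minus the mean of the 4 control arrays for the called members of 3 lists, 15 matrix genes, 15 lysosomal genes and 13 ER chaperones, ordered by change. The siKDM3A columns are blue for all but XBP1, DNAJB9 and SEC61B, and siFFluc replicate 1 is the reddest control column for AGRN, HYOU1, LAMB3 and ITGB4.

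NRF2 targets, which detoxify oxidants and foreign compounds, fell in 13 of 39 members (33.3%, against 6.18% of all genes) and rose in 0 against both controls. Their median was -0.20. The size depended on the control, with a median of -0.04 against siEGFP and -0.37 against siFFluc. The controls themselves differed by a median of 0.30, siFFluc higher, with 19 members called between them. Against each control alone 6 members fell. SRXN1, sulfiredoxin, gave 3111 and 3142 with siEGFP, 4336 and 4138 with siFFluc, and 1794 and 1993 with siKDM3A. The siKDM3A arrays were below both controls, and the fall was 0.94 ± 0.06 (adjusted p = 2.38e-06).

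TXNRD1, thioredoxin reductase, gave 18842 and 16053, then 23872 and 21782, and 13452 and 12342, a fall of 0.63 ± 0.07 (adjusted p = 0.000197). EPHX1, the microsomal epoxide hydrolase, fell by 1.17 ± 0.13 (adjusted p = 0.000142) and ABCC3, a conjugate export pump, by 1.07 ± 0.11 (adjusted p = 0.000104). The best known targets were not called. NQO1 gave 22190.4 and 20443 with siEGFP, 27771 and 26139.8 with siFFluc, and 22837 and 20220.2 with siKDM3A, so that siKDM3A stood level with siEGFP, and GCLM and HMOX1 gave -0.18 and -0.20 with adjusted p of 0.188 and 0.156. The core of the antioxidant response element, TGACNNNGC on either strand, was in the window of 4 of 8 members that fell and 7 of 20 that were not called, against 16.1% of all genes with a window. The falls numbered 8 without siKDM3A replicate 1.

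Genes of DNA replication rose in 19 of 58 members (32.8%, against 5.73% of all genes) and fell in 1 (1.72%, against 6.18%), with a median of 0.18. Genes of mitosis rose in 21 of 63 (33.3%) and fell in 1 (1.59%), with a median of 0.13. Called against each control alone were 6 and 8 of the rises. The replication list differed between controls too, with a median of -0.19 for siFFluc against siEGFP and 13 calls. POLE3, a small subunit of DNA polymerase epsilon, gave 4929 and 4296 with siEGFP, 2888 and 2977 with siFFluc, and 7057 and 5964.5 with siKDM3A. All 3 siRNAs were apart, siKDM3A highest, and the rise was 0.82 ± 0.08 (adjusted p = 7.15e-05). GMNN, geminin, which blocks relicensing of origins, gave 8343 and 8321, then 7061 and 7599, and 11407 and 12228, a rise of 0.60 ± 0.07 (adjusted p = 0.000212).

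MAD2L1, of the spindle checkpoint, gave 6072 and 6938 with siEGFP, 5190.1 and 5247 with siFFluc, and 9961 and 9713.5 with siKDM3A, a rise of 0.76 ± 0.07 (adjusted p = 3.35e-05). FBXO5, the inhibitor EMI1 of the anaphase-promoting complex, rose by 0.61 ± 0.07 (adjusted p = 0.000266) and SPC25, of the kinetochore, by 0.56 ± 0.07 (adjusted p = 0.000529). The members that fell were ORC2 and BIRC5, at -0.33 and -0.21. The ORC2 call ended without either siEGFP or either siKDM3A array (adjusted p 0.0617 to 0.212), and the BIRC5 call without any 1 array but siFFluc replicate 2 (0.0504 to 0.212). An E2F site, TTTGGCGC or TTTCCCGC on either strand, was in the window of 6 of 17 replication genes that rose and 16 of 34 that were not called, against 2.75% of all genes with a window. Without siKDM3A replicate 1, 11 replication and 9 mitosis genes rose, without siKDM3A replicate 2, 10 mitosis genes did, and under median scaling 10 and 9. Without siFFluc replicate 2, 6 mitosis genes fell, and without siFFluc replicate 1, 2 replication genes fell.

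Regulators of G1 moved both ways, with 7 of 27 higher (25.9%, against 5.73% of all genes) and 2 lower (7.41%, against 6.18%). Against siEGFP alone 2 rose and 2 fell, and against siFFluc alone 9 rose and 3 fell, with medians of 0.18 and 0.19. In the same direction against each control 2 rose and 2 fell. CDKN1B, the inhibitor p27, gave 2506 and 2676 with siEGFP, 2634 and 2521 with siFFluc, and 3682 and 3776.5 with siKDM3A, a rise of 0.53 ± 0.06 (adjusted p = 0.000143). CDK6, a kinase partner of cyclin D, gave 4112 and 4147.5, then 3633 and 3805, and 2373 and 2483, a fall of 0.69 ± 0.06 (adjusted p = 2.4e-05). In both genes controls and siKDM3A were well apart. CCND1, the cyclin itself, gave 5119.7 and 5289, then 6090.4 and 4573, and 3690.0 and 3795, a fall of 0.48 ± 0.09 (adjusted p = 0.00588) that was not called without siKDM3A replicate 1 (adjusted p = 0.0635). Without siKDM3A replicate 1, 4 regulators of G1 rose, and 2 without replicate 2.

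Of 27 p53 targets 3 rose (11.1%, against 5.73% of all genes) and 2 fell (7.41%, against 6.18%). TIGAR, a fructose bisphosphatase that slows glycolysis, gave 6106 and 5959.8 with siEGFP, 5922 and 5866 with siFFluc, and 2986.5 and 3128.5 with siKDM3A, a fall of 0.96 ± 0.06 (adjusted p = 2.29e-06) from controls that were almost level. RRM2B, a subunit of ribonucleotide reductase, fell by 0.40 ± 0.08 (adjusted p = 0.00894), a call lost without siKDM3A replicate 1 (0.078) or 2 (0.0599). SESN1, TRIAP1 and PMAIP1 rose by 0.49, 0.33 and 0.29. These calls ended without siKDM3A replicate 1 (adjusted p 0.0791, 0.0502 and 0.179), those of SESN1 and PMAIP1 also without replicate 2 (0.099 and 0.0544), and that of PMAIP1 without siEGFP replicate 2 (0.0593). The rises numbered 5 without either of the siFFluc arrays, 0 without siKDM3A replicate 1 and 1 without siKDM3A replicate 2.

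Of the lipid synthesis genes 0 rose. For fatty acids 5 of 21 fell (23.8%) and for cholesterol 4 of 19 (21.1%), against 6.18% of all genes. Against siEGFP alone 3 and 1 fell, and FASN (-0.35) and LSS (-0.30) were not called. SCD, the desaturase that makes oleate, gave 2059.8 and 2135.5 with siEGFP, 3077 and 2363 with siFFluc, and 1245.5 and 1219 with siKDM3A. It was below all controls and fell by 0.94 ± 0.09 (adjusted p = 3.35e-05), with its other 3 probe sets called lower too. ACLY, which makes cytosolic acetyl-CoA, fell by 0.38 ± 0.05 (adjusted p = 0.000832), ACSS2, which makes it from acetate, by 0.89 ± 0.19 (adjusted p = 0.00851), and DHCR7, the last enzyme of cholesterol synthesis, by 0.60 ± 0.12 (adjusted p = 0.00569). The ACSS2 call ended without siKDM3A replicate 1 (adjusted p = 0.061) or 2 (0.0733), and the DHCR7 call without replicate 1 (0.0961). Without siKDM3A replicate 1, 3 and 0 members of these lists fell, without siKDM3A replicate 2, 2 and 2, and without siEGFP replicate 2, 1 cholesterol gene.

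Hypoxia-responsive genes and glycolytic enzymes had 2 of 36 higher (5.56%, against 5.73% of all genes) and 7 lower (19.4%, against 6.18%), with a median of -0.11. KDM3A is itself induced by hypoxia. BNIP3, a mitophagy receptor, gave 520 and 456, then 414.5 and 487, and 737 and 664.5 with siKDM3A, a rise of 0.56 ± 0.08 (adjusted p = 0.000939), and the vasodilator peptide gene ADM rose by 0.42 ± 0.07 (adjusted p = 0.00192). The glycolytic enzyme genes GPI and PKM fell by 0.41 ± 0.07 (adjusted p = 0.00281) and 0.86 ± 0.17 (adjusted p = 0.00618). For PKM siFFluc replicate 1 read 16570.2 against 7888 to 9052 on the other controls, and its other probe set was at 0.00. Neither GPI nor PKM was called without siKDM3A replicate 2 (adjusted p = 0.0501 and 0.0999). Against siEGFP alone 4 members rose and 1 fell, against siFFluc alone 3 rose and 11 fell. The rises numbered 5 without siFFluc replicate 1 and 4 without siFFluc replicate 2, and the falls numbered 4 without siKDM3A replicate 1 and 3 without siKDM3A replicate 2.

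The integrated stress response and amino acid supply list had 3 of 32 higher (9.38%, against 5.73% of all genes) and 9 lower (28.1%, against 6.18%). Its median was -0.11, with -0.03 against siEGFP and -0.20 against siFFluc. Against siEGFP alone 3 rose and 3 fell, and against siFFluc alone 3 rose and 9 fell. PHGDH, the first enzyme of serine synthesis, gave 1202 and 1160.4 with siEGFP, 1109 and 1174 with siFFluc, and 833 and 844 with siKDM3A, a fall of 0.46 ± 0.09 (adjusted p = 0.00483). SLC7A5, the leucine transporter LAT1, fell by 0.87 ± 0.16 (adjusted p = 0.00339), with siFFluc replicate 1 again high at 7279.5 against 3916 to 4172. Against siEGFP alone SLC7A5 was at -0.64 and was not called by limma (adjusted p = 0.0537). The falls numbered 3 without siKDM3A replicate 1, 4 without siKDM3A replicate 2 or 1 of 4 A549 arrays (siFFluc or siKDM3A, replicate 1 or 2) and 5 without siEGFP replicate 1, and 0 rises were called without either siKDM3A array.

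Lists of housekeeping genes were also read. Of 27 cytosolic ribosomal protein genes limma called 0 in either direction (0 at an unadjusted p under 0.05), with a median of 0.01 that lay between 0.17 against siEGFP and -0.17 against siFFluc. In this list 21 differed between the control siRNAs, with siFFluc higher by a median of 0.34. Of 40 respiratory chain subunits 4 rose and 4 fell (10.0% each, against 5.73% and 6.18% of all genes, with a median of 0.05), among the falls UQCRC1 of complex III (-0.54 ± 0.08, adjusted p = 0.0013) and NDUFV1 of complex I (-0.42 ± 0.07, adjusted p = 0.0025). The respiratory rises numbered 11 without siFFluc replicate 2 and 2 without siEGFP replicate 2 or either siKDM3A array, and 2 fell without siKDM3A replicate 2. Of 15 genes of the RNA interference machinery 1 was lower (6.67%, close to the 6.18% of all genes). This was SND1 (-0.50 ± 0.13, adjusted p = 0.0243), whose call ended without either siEGFP array (-0.49 and -0.52) or siKDM3A replicate 1 (-0.26).

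Of 33 receptor tyrosine kinases and ligands 1 rose and 3 fell (3.03% and 9.09%), and of 30 ERK feedback and immediate-early genes 2 rose and 4 fell (6.67% and 13.3%), against 5.73% and 6.18% of all genes. EPHA2, an ephrin receptor, gave 2280.2 and 2225.5 with siEGFP, 2760.4 and 2162 with siFFluc, and 1364 and 1370.1 with siKDM3A, a fall of 0.77 ± 0.10 (adjusted p = 0.000397), while EFNA1, its ligand, rose by 0.33 ± 0.09 (adjusted p = 0.0258). MET, the receptor for hepatocyte growth factor, fell by 0.39 ± 0.08 (adjusted p = 0.00654, and 0.11 without siKDM3A replicate 1). The EFNA1 call ended without siEGFP replicate 2 or either siKDM3A array (0.0805 to 0.169). DUSP4, a phosphatase that inactivates ERK, fell by 0.64 ± 0.08 (adjusted p = 0.000258) and the ETS factor ETV4, which ERK activates, by 1.52 ± 0.22 (adjusted p = 0.000888), whereas EGR1 rose by 0.45 ± 0.08 (adjusted p = 0.00364). The receptor falls numbered 5 without siFFluc replicate 2. The ERK rises numbered 5 without siFFluc replicate 1 and 1 without either siEGFP, siKDM3A or A549 siKDM3A array. The ERK falls numbered 7 without siFFluc replicate 2 and 2 without siEGFP replicate 1, siFFluc replicate 1, siKDM3A replicate 1, or A549 siKDM3A replicate 1 or 2.

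Writers and readers of H3K9 methylation, the mark KDM3A removes, had 2 of 18 higher and 0 lower by limma, or 4 and 2 at an unadjusted p under 0.05 (11.1% higher, against 5.73% of all genes). Without siFFluc replicate 1 there were 4 higher and 2 lower, and without siFFluc replicate 2 there were 2 lower. With siEGFP replicate 1, siEGFP replicate 2 or siKDM3A replicate 2 left out 1 was higher, and with siEGFP replicate 1 or either A549 siFFluc array left out 1 was lower. HELLS, a helicase that cooperates with DNA methylation, gave 2544 and 2416, then 1921 and 2007, and 2882.5 and 2848, a rise of 0.37 ± 0.06 (adjusted p = 0.00222) that was 0.21 against siEGFP and 0.54 against siFFluc. MPHOSPH8, a reader of the mark in the HUSH complex, rose by 0.38 ± 0.10 (adjusted p = 0.0295) on the probe set used, and its other 3 were not called. That call ended without either siEGFP array (0.0581 and 0.0811) or siKDM3A replicate 2 (0.287). Of the marker lists for other cell types, limma called 0 of 4 leukocyte, 0 of 5 fibroblast and 0 of 2 endothelial genes (1, 0 and 0 at an unadjusted p under 0.05), and 1 of 6 lung genes, SFTPC, was lower (-1.08 ± 0.31, adjusted p = 0.0413). The SFTPC call ended without any of 7 arrays (adjusted p up to 0.227): siEGFP replicate 1 or 2, siFFluc replicate 1, siKDM3A replicate 1 or 2, and the A549 siKDM3A pair.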

How the data were processed

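Expression was measured on 12 arrays, and the values analysed are the intensity signals the authors deposited, made with MAS5 per the submitters' processing notes, version not given in the sources used here. Every array had the same trimmed mean (500.1), which the values show was fixed by scaling. Of 54613 probe sets after removal of 62 controls, 41091 carried 1 gene symbol, updated through RefSeq gene numbers. Signals were taken as log2(signal + 16), and probe sets were kept at or above the 40th percentile of mean log2 signal over 12 arrays (a signal of 29.6). A model of 6 group means over 12 arrays was fitted with limma 3.58.1 in R 4.3.3 with a trended prior, tested on simulated data, and adjusted by Benjamini-Hochberg over 14057 genes. The number of arrays limits the precision.

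The genes, the 34 lists and the comparisons were chosen with earlier results of these data known. Named genes were KDM3A, CCND1, the 12 largest rises and 12 largest falls under the rule given above, and list members of smallest p among those called, with 1 item not reported here. Some others were named after their values were seen: IFIT3, OAS1, RSAD2, ISG15, PLSCR1, LGALS3BP, DDX60L, RIGI, TICAM1, CXCL5, CXCL8, CCL2, LAMB3, AGRN, ITGB4, ARSA, FN1, TGFB1, CAV1, DNAJB9, SEC61B, HYOU1, ORC2, BIRC5, KDM3B, NQO1, GCLM and HMOX1. Alternatives were other pseudocounts, filters, scalings, probe set rules, models, and each array or control left out. Figures used matplotlib 3.10.9 under Python 3.11.15.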

Additional observations from a re-analysis of the deposited data

Results flagged for a closer look

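For 13 of the 25 genes tested (KDM3A and the 12 largest rises and falls), the change in SW780 differed from that in A549 by limma's test of the difference, 10 rises and 3 falls. Over all genes 2.79% differed. The rises and falls were chosen for large changes in SW780, and that change is part of the difference tested. A high share was therefore favoured by the choice and is no independent evidence. Differences are SW780 minus A549 on the log2 scale.

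The interferon-induced genes among them had larger changes in SW780, by 2.25 for IFI27, 1.61 for IFIT1, 1.66 for MX1, 1.46 for IRF9, 1.54 for MX2, 1.12 for OAS2, 1.20 for XAF1, 0.96 for IFI6 and 1.07 for CXCL11. Their levels before knockdown also differed. The control mean of IFI27 was 5378 in A549 and 76.3 in SW780, that of IFIT1 was 7760 and 233, that of IRF9 was 2610.5 and 341, and that of IFI6 was 4169 and 439. Control means of XAF1 were close, at 457 in A549 and 406 in SW780, with a change of 0.00 in A549. The part of the starting level in these differences was not tested.

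PIP4P2, the phosphatase gene of late endosomes, differed by 1.36, with -0.21 in A549. KRT80 and KIF3B fell in both lines, and less in SW780, with differences of 0.58 and 1.13. EPHX1 differed by -1.18, with a change of -1.17 in SW780 and 0.02 in A549, and it was lower in SW780 alone by limma. Its control means were 2297 in A549 and 2043 in SW780. KDM3A itself fell by a similar size, with a difference of 0.11 ± 0.15 (adjusted p = 0.743).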

How the results depend on the processing

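Each comparison was repeated under up to 25 alternatives. Of the 134 named genes, 91 kept their call without any 1 array and 67 under every alternative run. KDM2A changed sign, to -0.054 (adjusted p = 0.787) in place of 0.22, when the probe sets of a gene were averaged. Of 138 other kept probe sets of named genes, 52 were called in the same direction and 0 in the opposite one by limma.

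Leaving out 1 array at a time gave 749 to 2618 calls against both controls, 299 to 1331 higher and 430 to 1287 lower. It gave 310 to 1501 against siEGFP alone, 1060 to 2932 against siFFluc alone, 223 to 806 against each control alone, 189 to 1937 between the controls, 43 to 954 for the difference between lines, and 4029 to 6871 genes beyond all controls.

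With SW780 arrays alone the counts were 883 against both (373 higher, 510 lower), 327 against siEGFP, 1136 against siFFluc, 234 against each and 167 between the controls. Without a trend in the prior they were 884 (406 and 478), 355, 1211, 231 and 228, and 88 for the line difference. With siEGFP as the only control there were 894 (427 and 467). With probe sets averaged there were 575 against siEGFP, 524 between controls and 154 for the line difference. Median scaling gave 287 higher, 415 between controls and 1941 for the line difference, quantile normalization 456 between controls, and no filter 216 for the line difference.

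Replicate numbers did not pair the arrays, as same-numbered arrays of different groups correlated at -0.03 to 0.00 in their deviations from group means. With the replicate block there were 1612 calls against both controls (779 higher, 833 lower) and 250 for the line difference.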
